A study of Mus musculus with 6 samples.

Results

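Sox10, Foxd3, Tfap2a, Tfap2b, Snai2, Ngfr, Erbb3, Mitf and Ednrb, 9 genes known from the neural crest, were followed in embryoid bodies with and without the TET enzymes. The members were chosen by name, and their probes by the RefSeq accession the array gives for each. This gave 12 of the 55418 probes kept and 9 of the 20805 genes with a symbol. Of the 12 probes, 9 entered the tests, for 8 genes. Tfap2b was the gene left out, because its probe did not stand clear of background on both arrays of any line.

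The neural crest is a population of cells that forms at the border of the neural plate, leaves the neural tube by an epithelial-to-mesenchymal transition and migrates through the embryo. It gives rise to melanocytes, Schwann cells and other glia, sensory, autonomic and enteric neurons, and to mesenchyme of the face. Transcription factors of the AP-2, FOX, SNAIL and SOX families specify it, and the receptors Ngfr, Erbb3 and Ednrb read growth factors along its routes. Most of the members are also made elsewhere: Foxd3 also acts in pluripotent stem cells, Snai2 and Ngfr in mesenchyme, Tfap2a in surface ectoderm and trophoblast, Erbb3 in epithelia and Ednrb in vessels.

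The embryoid bodies, aggregates in which stem cells differentiate without LIF, were made from wild-type (WT) mouse embryonic stem cells and from cells with a triple knockout (TKO) of Tet1, Tet2 and Tet3, all of mixed 129/C57BL6 background. They spent 2 days in hanging drops and 8 days in suspension, and total RNA of day 10 was hybridised with Cy3 to 1-colour Agilent arrays. There was 1 WT line and there were 2 TKO lines, TKO_26 and TKO_29, with 2 arrays of each line, 6 in all. The series calls the arrays of a line technical replicas, so the tests over arrays compare these lines and leave out how WT lines vary among themselves. No group received a treatment. All 6 arrays were on 1 slide, the WT arrays in its column 1 and the TKO arrays in its column 2, and slide column cannot be told apart from genotype.

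Between 38.4% and 55.8% of spots per array were flagged well above background by the scanner software, a flag called "detected" below; TKO_26 replicate 1 had the fewest. The log2 difference of a probe had a standard deviation, over 19173 probes detected on every array, of 0.35 to 0.41 between the arrays of a line, 0.55 between the TKO lines and 0.69 and 0.90 between WT and TKO_26 and TKO_29. The targeted genes were measured first. Tet1 was lower in both TKO lines on its brighter probe, by 1.02 and 1.68 on the log2 scale, but not on the other (-0.08 and 0.23). Both Tet2 probes were lower (-1.09 and -1.90, and -1.25 and -1.50), and the Tet3 probes disagreed (1.05 and -0.62, -1.26 and -1.60, and -2.60 and -4.41); no source used here says whether a probe lies inside a deleted part, and a probe outside one checks nothing. The labelled tissue was checked with 10 genes of heart muscle, blood, endoderm, endothelium, mesenchyme and neuroectoderm. All 10 were detected on at least 1 WT array, Pax6 on only 1, while 4 were detected on no array of TKO_26 and 3 on no array of TKO_29. By the rule given below, 8 of the 10 fell and 0 rose (median log2 difference -6.24), beside 8.03% and 3.99% of genes with a symbol.

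Levels are given as scaled log2 signals, the log2 of a probe's processed signal minus the 75th percentile of its array. They compare 1 probe across arrays, and not 1 gene with another. A gene "rose" or "fell" where both TKO lines differed from WT in the same direction by at least 2-fold, each with a limma adjusted p under 0.05. Where a group was not detected on every array, its undetected signals below the lowest detected signal of that array were raised to that signal. Undetected signals already above it were kept as read, as on TKO_26 replicate 2 for Ednrb and WT replicate 2 for Erbb3. The fold is then written "at least", and it is a lower limit only as far as signals were raised. Both comparisons use the same WT arrays and are not independent of each other.

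The members moved in both directions. Snai2 and Ednrb fell, Sox10 and Erbb3 were called higher, and Foxd3, Tfap2a, Ngfr and Mitf were not called. Among all 28265 probes tested, 5.93% fell and 4.1% rose by the same rule, and among 14577 genes with a symbol 8.03% and 3.99%, against 2 and 2 of the 8 genes tested here. The same 4 genes were called in each line alone, where 7.11% of probes were called lower and 5.6% higher in TKO_26, and 10.8% and 9.4% in TKO_29. Of the 5 members detected on all arrays (Foxd3, Tfap2a, Snai2, Ngfr and Mitf), 1 fell, Snai2, and 0 rose by limma in both lines, beside 4.29% and 2.86% of such probes. The Sox10 and Erbb3 probes entered the tests only through TKO_29, in which they were brighter than in WT and detected on both arrays. The Ednrb probe was detected on no array of TKO_26. Over the 8 genes the median difference of the mean of both TKO lines from WT was 0.18, beside -0.00 over all probes tested. In bulk RNA, fewer cells of a type and less RNA per cell cannot be told apart.

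**Figure D1:**
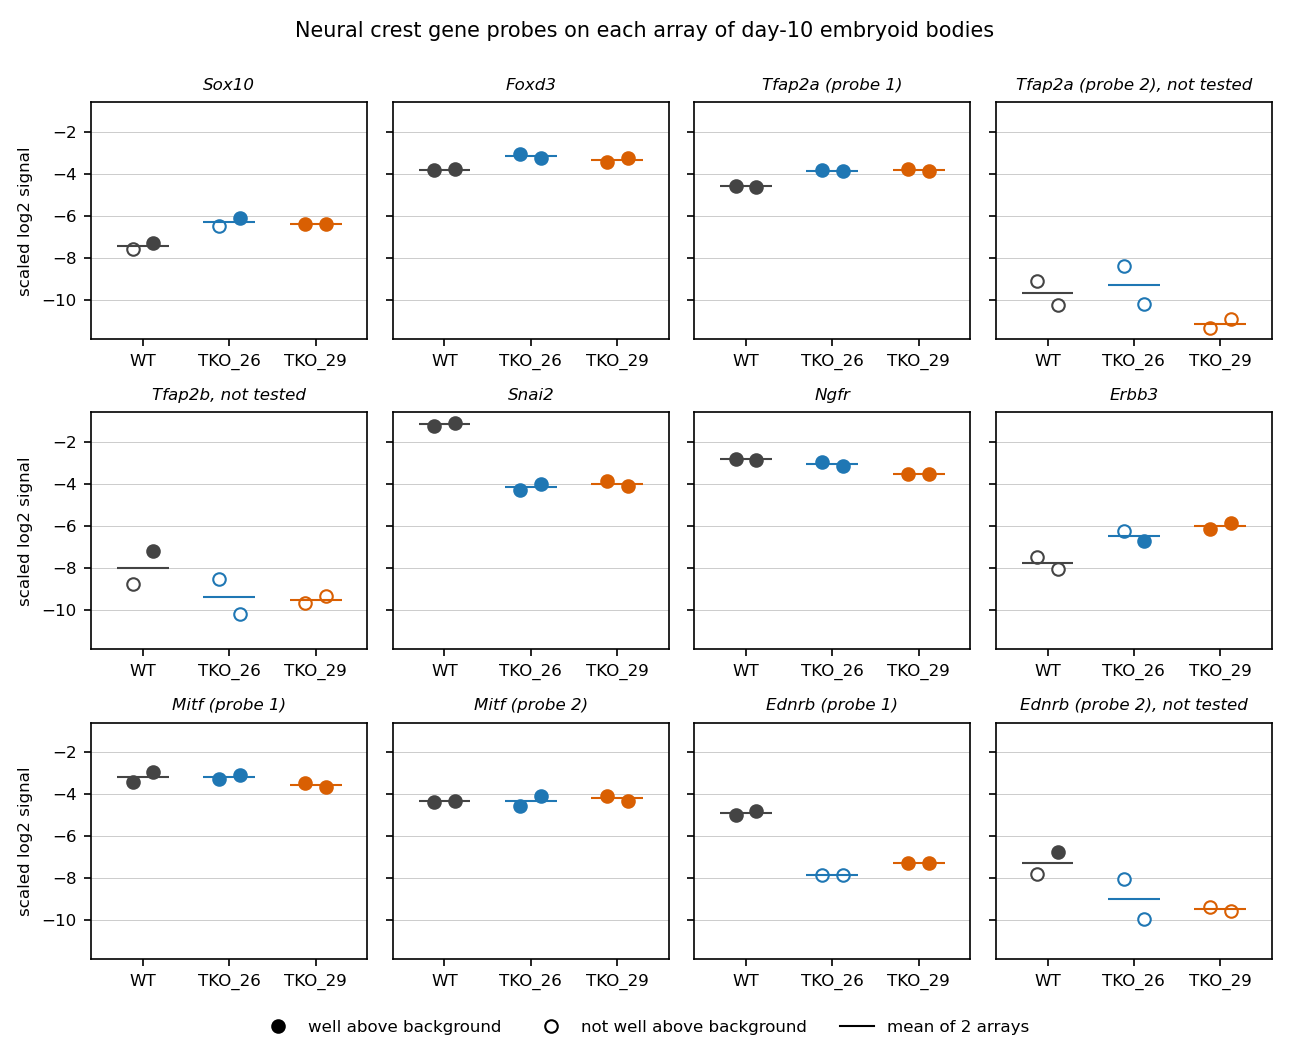
Scaled log2 signal of each of the 12 probes (vertical axis, relative to the array's 75th percentile) on the 2 arrays of WT, TKO_26 and TKO_29; filled points are detected, open points are not, and a line marks the mean of 2 arrays. Snai2 and Ednrb (probe 1) drop from WT to both TKO lines, Sox10 and Erbb3 lie near background in WT, and the probes marked "not tested" are detected on at most 1 array.

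Snai2, which encodes SLUG, a zinc-finger repressor of E-cadherin and driver of the epithelial-to-mesenchymal transition, showed the clearest difference of the members. Its scaled log2 signal was -1.22 and -1.10 on the WT arrays, -4.27 and -4.02 in TKO_26, and -3.87 and -4.11 in TKO_29. All 4 TKO arrays lay below both WT arrays, as they did for 23.9% of all probes, with a gap of 0.26 between the TKO_26 arrays and of 0.24 between the TKO_29 arrays. Snai2 fell 7.92-fold in TKO_26 (log2 difference -2.99 ± 0.17, SE; limma adjusted p = 0.0012) and 7.12-fold in TKO_29 (-2.83 ± 0.17; adjusted p = 0.0013). It was detected on all 6 arrays, and the difference between the TKO lines, 0.15, missed the threshold (adjusted p = 0.58). Of all probes tested, 1.77% had a lower difference. The call held under each of the other settings tried, with log2 differences from -3.11 to -2.84 in TKO_26 and from -2.95 to -2.65 in TKO_29.

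When a line counts as 1 replicate, with WT n = 1 and TKO n = 2, the Snai2 difference was -2.91 ± 0.34 and missed the threshold (limma adjusted p = 0.0575). By that test 0 of the 8 members were called in either direction, beside 0.11% of all probes higher and 0.637% lower; 4 members (Sox10, Snai2, Erbb3 and Ednrb) had an unadjusted p under 0.05, as did 17.3% of all probes. Snai2 and Ednrb were called on line averages without TKO_26 replicate 1 and without TKO_29 replicate 1, with an adjusted p of Snai2 of 0.0133 in the lower case, and missed without any 1 of the other 4 arrays, where it reached 0.233. With the line as a random block instead, 2 members were called lower and 2 higher, but that fit draws its error from arrays of a line.

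Mesenchyme also expresses Snai2. Of 13 mesenchyme and fibroblast genes tested, 6 fell, 0 rose and 7 were not called, with a median log2 difference of -0.67. Their mean scaled log2 signal was -1.52 and -1.61 on the WT arrays and -2.72 to -2.81 on the 4 TKO arrays. Twist2, a mesenchymal transcription factor, fell 16.7-fold, Pdgfrb, a receptor for platelet-derived growth factors, fell 9.06-fold, Fbn1, which encodes fibrillin, fell 6.92-fold, and the collagen gene Col3a1 fell 5.47-fold. Among those not called, Thy1 and Dcn lay at 0.73 and 0.70 and Col1a1 at -0.37. The part of mesenchymal cells in the Snai2 result was not tested. E-cadherin itself, Cdh1, rose 54.9-fold, and whether this rise depends on Snai2 was not tested.

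Ednrb, the endothelin B receptor, which melanoblasts and enteric neuron precursors need, also fell. Its brighter probe read -4.98 and -4.80 on the WT arrays, -7.87 and -7.83 in TKO_26, and -7.29 and -7.26 in TKO_29. Each line formed a tight pair, and no TKO array reached a WT array, as for 23.9% of all probes tested. Ednrb fell at least 4.42-fold in TKO_26, where neither array detected it (fitted difference -2.96 ± 0.13; limma adjusted p = 0.00087), and 5.22-fold in TKO_29, where both did (-2.38 ± 0.13; adjusted p = 0.0011). The level of TKO_29 was 0.57 above that of TKO_26, which missed the threshold (unadjusted p = 0.0072; adjusted p = 0.107), and the sign of this gap was reversed, at -0.24, when signals were floored at background. With that floor the difference of TKO_26 from WT was -2.14 and no longer passed (adjusted p = 0.0698). The differences were smaller, but still called, with normexp (-1.76 and -1.14) and with the deposited matrix (-2.05 and -1.29). On line averages the difference was -2.67 ± 0.41 (adjusted p = 0.0863), at least 4.80-fold.

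The second Ednrb probe was too dim to enter the tests. It was detected on WT replicate 2 alone, at -6.76, and read -7.82 on the other WT array and between -8.03 and -9.93 on the TKO arrays. The TKO arrays again lay below both WT arrays, but 5 of the 6 readings were not detected.

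Ednrb and Foxd3 are shown by the 250 bases before their RefSeq transcription start, because TET enzymes act on methylated cytosines, which in mammals lie mostly in CG dinucleotides, and because one of these genes fell while the other did not. The Ednrb window is chr14:103843702-103843951 on the minus strand and the Foxd3 window chr4:99656049-99656298 on the plus strand, both from RefSeq on GRCm38.p6. Capitals mark each CG, and the sequences read 5′ to 3′ towards the start site:
Ednrb: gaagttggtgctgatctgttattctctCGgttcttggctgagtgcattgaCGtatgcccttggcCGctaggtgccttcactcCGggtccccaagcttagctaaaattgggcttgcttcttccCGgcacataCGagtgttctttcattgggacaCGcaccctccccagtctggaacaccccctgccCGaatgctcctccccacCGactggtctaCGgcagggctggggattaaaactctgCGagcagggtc
Foxd3: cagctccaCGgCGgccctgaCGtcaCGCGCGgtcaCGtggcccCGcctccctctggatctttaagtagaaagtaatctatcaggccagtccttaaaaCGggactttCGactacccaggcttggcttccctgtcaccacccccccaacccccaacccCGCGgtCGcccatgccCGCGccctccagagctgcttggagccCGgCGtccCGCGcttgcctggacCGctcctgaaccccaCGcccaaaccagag

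The Ednrb window held 11 CG and the Foxd3 window 21. Among 32851 RefSeq promoter windows of the same length the median was 6, with quartiles of 2 and 16; 35.6% held at least as many CG as Ednrb and 16.3% at least as many as Foxd3. Of the 9 members, 6 had entries in that table, 9 in all, and the counts of CG in the others were 16 for Ngfr, 10 in both windows of Tfap2a, 15, 4 and 3 in the windows of Mitf, and 5 for Tfap2b. Snai2, Sox10 and Erbb3 had none. DNA methylation was not measured on these arrays.

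The same windows were searched on both strands for letters that crest factors are known to bind. The AP-2 letters GCCNNNGGC, known for Tfap2a and Tfap2b, occurred once among the members, as GCCCTTGGC beginning 195 bases before the Ednrb start, and in 13.7% of all windows. The E-box CANNTG, known for SNAIL and MITF proteins among many others, occurred once in Foxd3 (cacgtg), once in 1 window of Mitf, once in Tfap2b and at 2 places in Ngfr, and in 66.2% of all windows. The letters CATGTG, 1 E-box form searched for MITF, were in 12.3% of all windows, and the SOX letters ACAAAG or ACAATG in 25.2%. Neither was in a member's window. Other E-box forms, such as the cacgtg of Foxd3, were counted only under CANNTG. These matches describe letters only.

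Of the endothelin partners, 4 of 6 genes were tested, and of these 2 fell and 0 rose. Edn1, which encodes endothelin 1, a ligand of both receptors, fell at least 4.32-fold, and Ednra, the endothelin A receptor of cranial crest and vessels, fell 3.30-fold. Ece1, a protease that activates endothelins, lay at -1.87 in TKO_26 (limma adjusted p = 0.068) and -3.91 in TKO_29 (adjusted p = 0.0076) and was not called. The related Ece2 was detected on no WT array and was not called (adjusted p = 0.060 and 0.081). Edn3, the ligand that Ednrb reads in crest cells, was detected on 0 arrays. The median of the list was -1.99. Only Ednra remained called when probes had to be detected on all 6 arrays, a rule that takes Edn1 out of the tests.

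Endothelial cells also make Ednrb. Of 12 endothelial genes, 9 fell and 0 rose, with a median of -4.30; their mean scaled log2 signal was -1.76 and -1.83 on the WT arrays and -5.15 to -5.73 on the TKO arrays. Tie1, an endothelial receptor, fell at least 56.1-fold, Sox18, a SOX factor of vessels, at least 44.4-fold, Cdh5, the cadherin of endothelial junctions, at least 57.0-fold and the sialomucin gene Emcn at least 18.1-fold. Tie1 and Emcn were detected on no TKO array. Among the 3 not called, Pecam1 lay at 0.51 and Sox17 at -0.60. The third, Kdr, lay at -0.48 on its brighter probe and at -5.95 on its other one. The count of endothelial genes that fell was 3 when probes had to be detected on all 6 arrays. That rule takes genes undetected on any TKO array out of the tests. The part of endothelial cells in the Ednrb result was not tested.

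**Figure D2:**
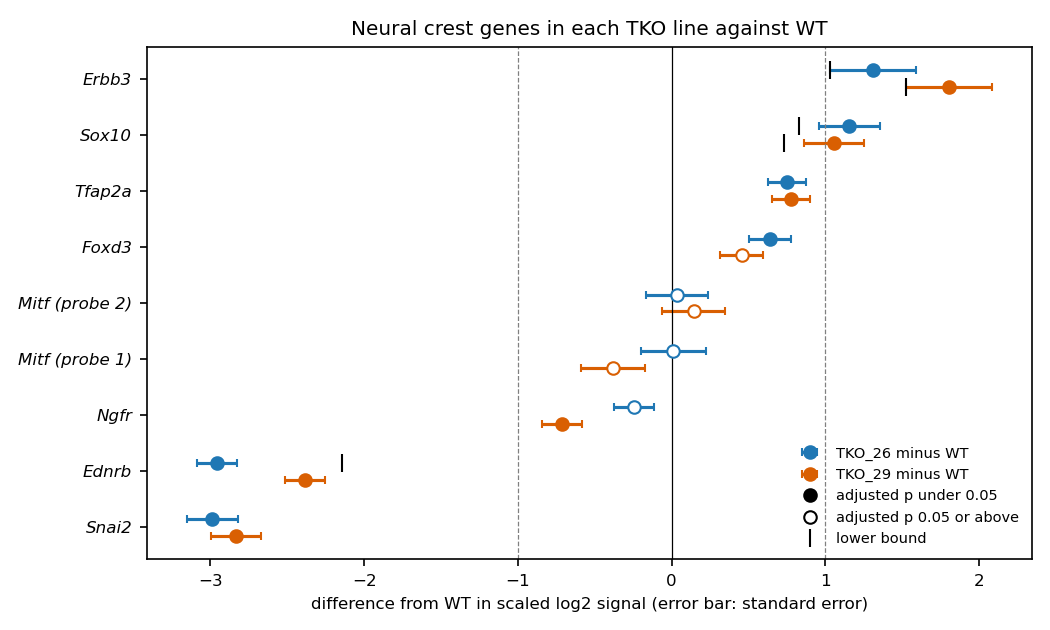
Difference of TKO_26 and TKO_29 from WT in scaled log2 signal (horizontal axis) for the 9 tested probes, with standard errors from the fit of 6 arrays; filled points have an adjusted p under 0.05, dashed lines mark 2-fold and short vertical marks the lower limit where a group was not detected throughout. Snai2 and Ednrb lie beyond 2-fold lower, Erbb3 and Sox10 beyond 2-fold higher with limits of Sox10 under 2-fold, and Tfap2a, Foxd3, Mitf and Ngfr between the dashed lines.

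Erbb3, the neuregulin receptor by which axons support Schwann cell precursors, stood higher in the TKO lines but close to background. Its probe read -7.49 and -8.06 on the WT arrays, detected on neither, -6.24 and -6.70 in TKO_26, detected on the second array, and -6.12 and -5.83 in TKO_29, detected on both. All 4 TKO arrays were above both WT arrays, as for 25.8% of all probes tested. The fitted difference was 1.31 ± 0.28 in TKO_26 (limma adjusted p = 0.0338), at least 2.04-fold, and 1.80 ± 0.28 in TKO_29 (adjusted p = 0.0104), at least 2.87-fold. On line averages it was 1.56 ± 0.39 (adjusted p = 0.169). The call in both lines held without TKO_26 replicate 2 and was lost without any 1 of the other 5 arrays, where the difference of TKO_26 ranged from 1.02 to 1.60 and its adjusted p from 0.0541 to 0.111. It was also lost with normexp background correction, where TKO_26 differed by 0.68, with the deposited matrix, by 0.73, and without the filter, with the floor at background or with the replicate block (adjusted p in TKO_26 0.191, 0.198 and 0.0562).

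Partners of Erbb3 gave few calls. Of 7 neuregulin and ERBB genes, 4 were tested, 1 fell and 0 rose. Nrg1, the neuregulin that Erbb3 binds, fell 2.34-fold, a call lost without WT replicate 2 or either TKO_29 array, with mean log2 differences from -1.33 to -1.08 over all alternatives. Erbb2, the co-receptor that signals for Erbb3, lay at 0.38 in TKO_26 (adjusted p = 0.135) and 0.87 in TKO_29 (adjusted p = 0.0128), under 2-fold. Erbb4, Nrg3 and Nrg2 were not tested, the first 2 being detected on 0 arrays. Epithelia also express Erbb3. Of 10 genes of surface ectoderm and epidermis tested, 1 rose (Cdh1) and 1 fell (Krt14, a basal keratin, 3.08-fold, a call lost without WT replicate 1), with a median of -0.13. Their mean scaled log2 signal was -0.94 and -1.06 in WT and -0.56 to -0.78 in the TKO lines; their part in the Erbb3 result was not tested.

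Sox10, the SOX factor that maintains crest progenitors and directs glia and melanocytes, was likewise near background in WT. Its probe read -7.58 and -7.26 on the WT arrays, -6.46 and -6.07 in TKO_26, and -6.36 and -6.37 in TKO_29. The first array of WT and of TKO_26 did not detect it. All 4 TKO arrays were again above both WT arrays, as for 25.8% of all probes tested. The fitted difference was 1.155 ± 0.20 in TKO_26 (limma adjusted p = 0.0194) and 1.05 ± 0.20 in TKO_29 (adjusted p = 0.0167), and 1.104 ± 0.33 on line averages (adjusted p = 0.224). The limits were at least 1.78-fold and at least 1.66-fold, so a change of 2-fold is not secured in either line.

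The Sox10 call also rested on single arrays. It was lost without WT replicate 1 (0.998 in TKO_26, adjusted p = 0.0835; 0.90 in TKO_29, adjusted p = 0.0723), without TKO_26 replicate 2 (0.96 in TKO_26) and without either TKO_29 array (adjusted p = 0.0886 and 0.0821 in TKO_29). Differences in TKO_26 and TKO_29 came down to 0.53 and 0.58 with normexp, 0.51 and 0.67 with the deposited matrix and 0.94 and 0.73 with the floor, and the call was also lost with quantile normalisation (adjusted p in TKO_26 0.129) and without the filter (0.150). The direction was the same under each alternative tried. Sox8 and Sox6, SOX factors also active in the crest, were detected on 0 arrays.

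Tfap2a and Foxd3 stood higher by less than 2-fold. Tfap2a, an AP-2 factor of the neural plate border, read -4.57 and -4.60 in WT, -3.79 and -3.87 in TKO_26, and -3.75 and -3.86 in TKO_29 on the probe that was detected throughout. All 4 TKO arrays lay above both WT arrays, as for 25.8% of all probes tested. The difference was 0.75 ± 0.12 in TKO_26 (1.68-fold; limma adjusted p = 0.0179) and 0.78 ± 0.12 in TKO_29 (1.71-fold; adjusted p = 0.0112), and 0.76 ± 0.33 on line averages (adjusted p = 0.350). Leaving out 1 array kept the size (0.71 to 0.83 over both lines), but the adjusted p of TKO_26 stayed under 0.05 only without TKO_26 replicate 2, and that of TKO_29 was lost without either of its own arrays. A second Tfap2a probe, for another transcript, was detected on 0 arrays.

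Foxd3, a forkhead repressor that keeps crest cells and pluripotent cells undifferentiated, read -3.80 and -3.78 in WT, -3.06 and -3.24 in TKO_26, and -3.41 and -3.26 in TKO_29. TKO_26 was highest, TKO_29 next and WT lowest, but the TKO lines, -0.19 apart, did not pass (adjusted p = 0.435). The difference from WT was 0.64 ± 0.14 in TKO_26 (1.56-fold; limma adjusted p = 0.0353) and 0.45 ± 0.14 in TKO_29 (1.37-fold; adjusted p = 0.059). Without any 1 array the adjusted p of TKO_26 was above 0.05, between 0.0579 and 0.128. Of 16 pluripotency genes tested, 5 rose, 0 fell and 11 were not called, with a median of 0.70, and their mean scaled log2 signal was -0.60 and -0.61 in WT, 0.27 and 0.23 in TKO_26 and -0.21 and 0.01 in TKO_29. Dppa3 rose 5.15-fold, Prdm14, a repressor of differentiation, 3.42-fold and Sox2, a factor of stem cells and of glia, 2.33-fold. The brighter Nanog probe stood 4.06-fold higher and was called, while the second one lay at -0.15. The Nanog call was lost without TKO_29 replicate 2, and that of Sox2 without any 1 array other than WT replicate 2. Among those not called, Klf4 lay at 1.15, Zfp42 at -0.95 and Dppa5a at -0.87. The part of undifferentiated cells in the Foxd3 values was not tested.

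Ngfr, the p75 neurotrophin receptor used to isolate crest cells, was measured by 10 spots per array, of which 3 of 60 were removed as outliers. Its means were -2.78 and -2.83 in WT, -2.96 and -3.14 in TKO_26, and -3.51 and -3.54 in TKO_29, with a standard deviation over spots of 0.05 to 0.16. WT was highest, TKO_26 next and TKO_29 lowest, with no overlap between the groups. All TKO arrays lay below both WT arrays for 23.9% of all probes tested, and the share with this full order was not counted. The difference was -0.24 ± 0.13 in TKO_26 (limma adjusted p = 0.250) and -0.71 ± 0.13 in TKO_29 (1.64-fold; adjusted p = 0.0158), the latter above 0.05 without WT replicate 1 (adjusted p = 0.0685) or either TKO_29 array. The 2 TKO lines were 0.47 apart (unadjusted p = 0.0156; adjusted p = 0.137). Of 9 neurotrophin partners tested, 1 fell and 0 rose. This was Ntrk2, the receptor for brain-derived neurotrophic factor, 2.48-fold lower, whose call was lost without either WT array or either TKO_29 array.

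Mitf, the master factor of melanocytes, passed the test in neither line on either probe. The probe that stood for it read -3.44 and -2.95 in WT, -3.27 and -3.10 in TKO_26, and -3.48 and -3.67 in TKO_29. The WT arrays themselves were 0.49 apart and overlapped those of TKO_26. The differences were 0.01 ± 0.21 (limma adjusted p = 0.978) and -0.38 ± 0.21 (adjusted p = 0.205). The second probe read -4.36 and -4.33 in WT, -4.54 and -4.08 in TKO_26, and -4.08 and -4.33 in TKO_29, with differences of 0.04 and 0.14. Standard errors of 0.21 and 0.20 leave room for small changes in either direction.

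Tfap2b, the AP-2 factor of sympathetic neurons and facial crest, was detected on WT replicate 2 alone, at -7.19. The other WT array read -8.78 and the TKO arrays -8.52 to -10.21, none of them detected. A change in Tfap2b was not detectable at this signal.

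Without the limit on size, 5 of the 8 genes (Sox10, Tfap2a, Snai2, Erbb3 and Ednrb) passed an adjusted p under 0.05 in both lines, beside 17.5% of all probes. Sox10 and Erbb3, also in the counts that follow, entered the tests only through TKO_29, where they were brighter than in WT. In TKO_26 alone 4 passed higher and 2 lower, beside 21.1% of probes in either direction, and in TKO_29 3 higher and 3 lower, beside 35.1%. By single arrays, 4 genes had all TKO arrays above both WT arrays, beside 25.8% of all probes tested. Another 3 had all of them below, beside 23.9%, and Mitf overlapped. No member differed between the TKO lines at an adjusted p under 0.05, the lowest being that of Ednrb, and 2 (Ednrb and Ngfr) had an unadjusted p under 0.05; 0.0354% of all probes were called higher in TKO_29 than in TKO_26 and 0.456% lower.

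**Figure D3:**
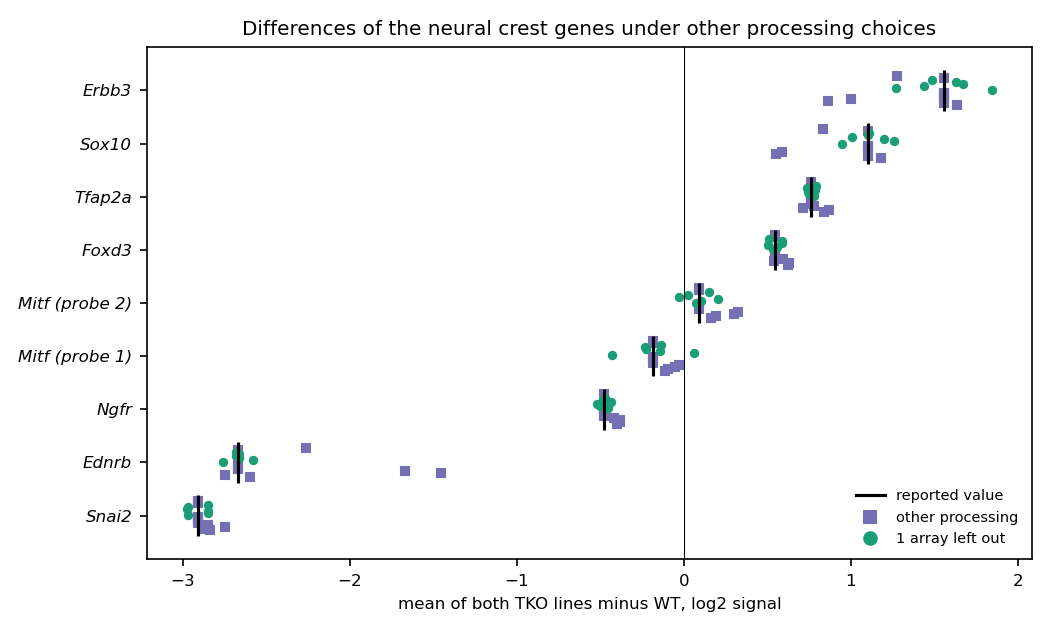
Mean of both TKO lines minus WT in log2 signal (horizontal axis) for the 9 tested probes, as reported (black line), under other processing (squares) and with 1 array left out (circles). Snai2 stays between -2.97 and -2.75, Ednrb moves up to -1.45 and Sox10 and Erbb3 down to 0.56 and 0.86 with other processing, and the Mitf probes cross 0.

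Of 13 genes of the neural plate border tested, 3 were called higher, 0 lower and 10 not at all, with a median of 0.04. Pax3, a border factor that acts upstream of Foxd3 and Mitf, rose 3.54-fold, from -5.45 and -5.28 in WT to between -3.70 and -3.35 on the TKO arrays. Its relative Pax7 was called higher, but was detected on no WT array and the limit, at least 1.52-fold, does not secure 2-fold; the call was lost with quantile normalisation and with the floor. Gbx2, a homeobox factor of the border detected on 1 WT array, rose 2.21-fold by the fit. Its undetected WT reading lay above the lowest detected signal of that array, so no limit applies. Neither Pax7 nor Gbx2 was called without WT replicate 1, nor Gbx2 without TKO_29 replicate 2. Of the border genes not called, Zic1 lay at 1.02 on its brighter probe but at -1.95 on its other tested probe. Msx1 lay at -0.83 and Msx2 at -1.06. Without WT replicate 1 the count was 1, as it was with normexp, with the deposited matrix, without the filter and with detection required on all arrays. Requiring detection on all arrays takes Pax7 and Gbx2 out of the tests.

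Of 15 other crest specifiers, which act after the border stage, 7 fell and 0 rose, with a median of -1.02. Cdh11, a cadherin of migrating crest and of mesenchyme, fell at least 4.85-fold, though its other probe differed by -0.33. The transcription factor Ets1, of cranial crest and of endothelium, fell 3.52-fold, Id2, an inhibitor of basic helix-loop-helix factors, fell 2.97-fold, and Sox9, of crest and cartilage, fell 2.79-fold, from -3.36 and -3.42 in WT to between -5.11 and -4.75. The others that fell were Snai1, Twist1 and Cdh6, chosen after their values were seen. The count was 4 without WT replicate 1 or TKO_29 replicate 1 and with normexp, and 2 without the filter. Several of these genes are also made by the mesenchyme and endothelium whose genes fell, and the part of those tissues was not tested.

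**Figure D4:**
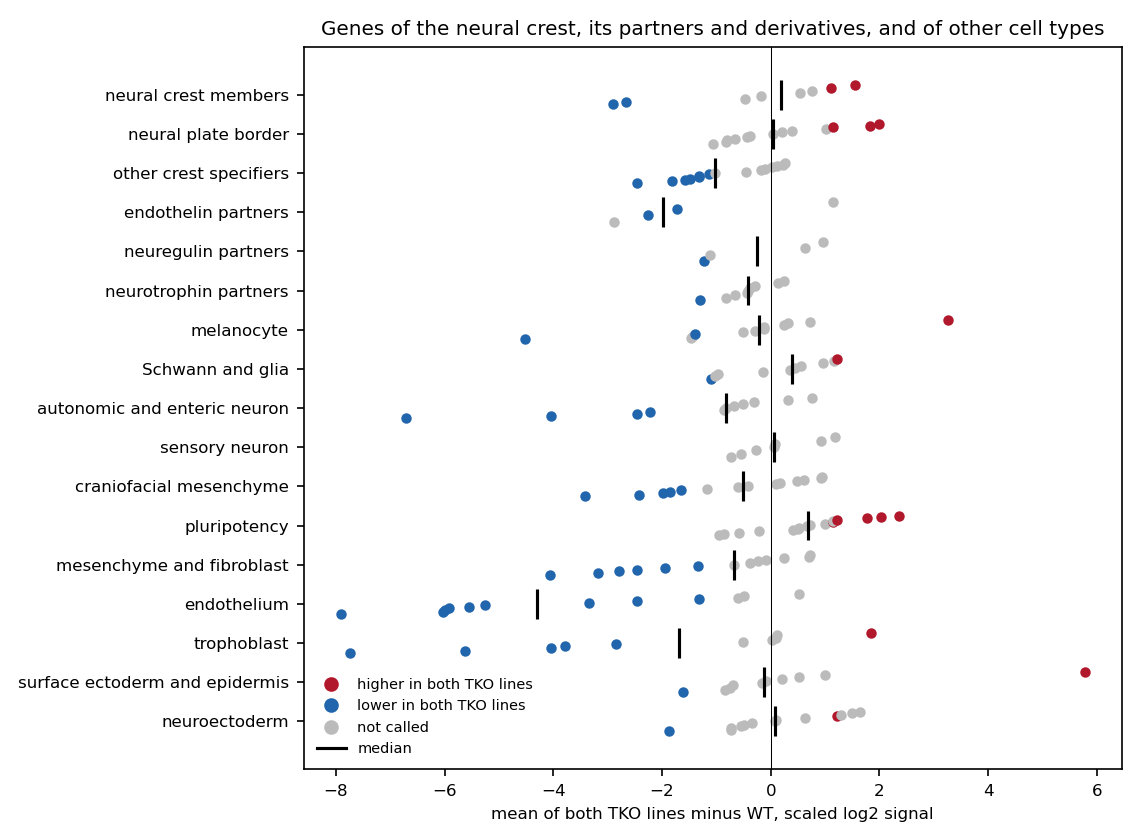
Mean of both TKO lines minus WT in scaled log2 signal (horizontal axis) for the tested genes of each list (rows), 1 point per gene on its brightest tested probe, coloured by the call in both lines, with a bar at the median. The neural crest members spread over both directions around a median of 0.18, border genes around 0.04 and later specifiers around -1.02, and endothelial genes have the lowest median of the cell types, -4.30.

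Of 12 melanocyte genes tested, 1 was called higher and 2 fell (median -0.21). Gpr143, a melanosome receptor, entered the tests through TKO arrays alone, being detected on no WT array, and was called higher (at least 2.03-fold), while Tfec and Tfeb, relatives of Mitf, fell at least 6.32-fold and 2.62-fold. The Gpr143 call was lost without either TKO_29 array, without the filter and with the floor, both lower calls without WT replicate 1 or either TKO_29 array, that of Tfec also without WT replicate 2 and that of Tfeb also without TKO_26 replicate 2. The pigment genes Dct, Mc1r, Slc45a2 and Oca2 were detected on 0 arrays and Tyrp1 on 1. Of 10 Schwann and glial genes (median 0.40), Sox2 rose and Egr2, a myelination factor, fell 2.15-fold by the fit. Of 4 TKO arrays, 3 detected Egr2. Its undetected reading lay above the lowest detected signal of that array, so no limit applies. Egr2 was no longer called when WT replicate 2, TKO_26 replicate 1 or either TKO_29 array was left out. The call was also lost with the percentile over all probes, quantile normalisation, normexp, the deposited matrix or no filter. S100b and Cdh19, known from Schwann cells, were detected on 0 arrays.

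Of 11 autonomic and enteric genes tested, 4 fell and 0 rose (median -0.82). Hand2 fell at least 92.0-fold, Hand1 16.4-fold, Gfra2, a receptor for neurturin, 5.51-fold and Gdnf, the ligand that guides enteric crest, 4.65-fold. Hand1 and Hand2 are also factors of the heart, and Hand1 of trophoblast. Ret and Dbh, known from autonomic and enteric neurons, were detected on 1 array each, and Gfra1 and Chrna3 on 0. Among 7 sensory neuron genes 0 were called by limma in both lines. Runx3, a factor of sensory neurons and blood cells, was detected on no WT array and was at least 1.56-fold higher on its brighter probe (adjusted p = 0.124 in TKO_26 and 0.0926 in TKO_29). The fitted difference of its other probe, which WT arrays did not detect either and which is therefore no limit, was 2.48.

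For each member the 2 named genes with the closest profile were sought among 11531 genes detected on all 6 arrays, by the root mean square distance over the 6 arrays after centring each gene on its mean. Snai2 was closest to Impact (0.062) and Thsd1 (0.072), and 15 genes lay within a distance of 0.2. Ednrb was closest to Ebf2 (0.057) and Amn (0.131), with 6 genes within 0.2. Erbb3 lay 0.096 from Ring1 and 0.173 from Lhx5, with 7 within 0.2, and Sox10 0.077 from Irf1 and 0.079 from Mtfp1, with 186.

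Members that changed little had many more near profiles. The distance was not scaled to the size of the changes, so a small change by itself brings a gene near many others. Foxd3 was closest to Dhrs3 (0.025) and Psmd7 (0.038), with 1391 genes within 0.2, Tfap2a to Mthfd1l (0.028) and Acp6 (0.033), with 1052, Ngfr to Usp4 (0.024) and Zfp62 (0.039), with 1208, and Mitf to Gsta4 (0.050) and C77080 (0.053), with 776. A small distance over 6 arrays of 3 lines describes these libraries only.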

How the data were processed

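Total RNA of day-10 embryoid bodies was measured on 6 one-colour arrays. Per the file headers, Agilent Feature Extraction 10.5.1.1 produced the processed signal used here, an intensity from which background had been subtracted and slow trends across the array removed, and flagged outlier, saturated and well-detected spots. A matrix of log2 values was also deposited. No source used here says how it was made. Each of its columns followed its own array (Pearson r 0.995 to 1.00 against the scanner values, 0.98 to 0.996 against any other array; column medians 6.86 to 6.89).

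Control and outlier spots were left out, saturated spots were kept and repeated spots averaged. Of 55681 probes 263 were lost to outlier flags. Accessions were matched to a RefSeq gene table of GRCm38.p6, which named 49.4% of probes; the array was designed on another assembly, so no probe coordinates are given. Log2 signals were scaled to the 75th percentile of probes detected on all arrays. A probe was tested if detected on both arrays of at least 1 line, and the brightest tested probe stood for a gene.

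The fits used limma 3.58.1 in R 4.3.3 (lmFit, eBayes) over all 28265 probes with Benjamini-Hochberg adjustment. The 6 arrays in 3 groups left 3 residual degrees of freedom, and the line averages 1. When 1 array of a line is left out, the other is assumed to vary like the other groups. The scripts were tested on simulated data. Parsing used Python 3.11.15, pandas 2.3.3 and numpy 2.4.6, and plots matplotlib 3.10.9. Alternatives were other scalings, normexp (offset 50), the deposited log2 matrix, other filters, 1 probe per gene, a variance trend, the replicate number as a block, the line as a random block and leaving out each array. A floor at background was added after the data were seen. The members and gene lists were chosen with earlier results of these data known. From each other list up to 4 genes called in both lines with the largest mean difference were named, or the largest where none was called; other genes were named as pathway partners, as undetected or, after their values were seen, as examples of genes not called. For promoters, 250 bases before each RefSeq start were used. Some genes of these lists are not reported here.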

Additional observations from a re-analysis of the deposited data

How the results depend on the processing

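The number of members lower in both lines, 2, was 1 (Snai2) with detection required on all 6 arrays and with signals floored at background. That detection rule takes Ednrb, Sox10 and Erbb3 out of the tests, so their loss under it was fixed in advance. The number higher in both lines, also 2, was 1 with quantile normalisation (Erbb3) and 0 with normexp, the deposited matrix, no filter, detection on all arrays or the floor; leaving out 1 array gave 0 to 1. On line averages the number lower, 0, was 2 with the deposited matrix, with a variance trend and with the line as a random block, and 0 to 2 leaving out 1 array; the number higher, 0, was 2 with the random block. Reversed values came from the Mitf probes when 1 array was left out and from Ednrb with the floor. The brighter Mitf probe ranged from -0.24 to 0.25 in TKO_26, turning below 0 without WT replicate 1 or TKO_26 replicate 2, and from -0.43 to 0.059 on line averages, turning above 0 without WT replicate 2. The other turned below 0 without TKO_26 replicate 2, ranging from -0.20 to 0.27 in TKO_26 and from -0.026 to 0.20 on line averages. The gap between the TKO lines for Ednrb was -0.24 with the floor. The cause was not tested.

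Same-numbered arrays deviated together between WT and TKO_26 (correlation of their differences 0.378). Between WT and TKO_29 (-0.324) and between the TKO lines (-0.427) they deviated in opposite directions. The replicate numbers thus do not mark 1 common deviation in all lines, and whether arrays shared a batch was not tested. With the replicate block 1 member (Sox10) was higher and 2 lower. With that block 988 probes were called higher and 1561 lower in both lines, against 1159 and 1676 without it. These overall counts were 638 and 1152 with normexp, 210 and 618 without the filter, 569 and 838 with detection on all arrays, 689 and 1205 with the floor, and 642 and 1227 or 667 and 1219 without TKO_29 replicate 1 or 2. On line averages 31 probes were higher and 180 lower, against 607 and 1113 with the deposited matrix, 528 and 1105 with the variance trend, 1080 and 1651 with the random block, and 0 and 0 with quantile normalisation, normexp, no filter, detection on all arrays, 1 probe per gene or the floor; leaving out 1 array gave 0 to 455 and 0 to 969. The scalings moved the median of all probes by at most 0.08. Signal close to background limits Sox10, Erbb3, Tfap2b and the TKO_26 level of Ednrb, and the single WT line limits every comparison of genotypes.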

Other observations

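Other cell types whose genes were read beside the crest gave mixed calls. Of 14 genes of craniofacial mesenchyme tested, 5 fell and 0 rose in both TKO lines (median log2 difference -0.50). Meox1, a homeobox factor of somites and mesenchyme, fell 10.6-fold, Pdgfra, a receptor of crest-derived and other mesenchyme, fell 5.39-fold, and the homeobox genes Prrx2 and Prrx1 fell 3.94-fold and 3.61-fold. Leaving out WT replicate 1 made the count 2, leaving out WT replicate 2 or either TKO_29 array made it 3, and dropping the filter made it 1. Dlx1 was detected on 0 arrays and Dlx2 on 2.

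Of 13 neuroectoderm genes, Sox3, a factor of neural progenitors, rose 2.32-fold and Tubb3, a neuronal tubulin, fell 3.66-fold (median 0.08). Both calls were lost without WT replicate 1 or either TKO_29 array, that of Sox3 also without WT replicate 2 or TKO_26 replicate 1 and with the replicate block, and that of Tubb3 also without either TKO_26 array. Of 10 trophoblast genes, which share Tfap2a with the crest, 5 fell and 1 rose (median -1.68). The placental hormones Prl3b1 and Prl3d1 fell at least 177-fold and at least 37.0-fold, Hand1 16.4-fold, and the transcription factor Elf5 at least 9.73-fold.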
